A study of Mus musculus with 6 samples.

Results

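The genes described here are 10 genes of the smooth muscle and myofibroblast contractile apparatus, namely *Acta2*, *Actg2*, *Myh11*, *Myl9*, *Tpm1*, *Tpm2*, *Tagln*, *Cnn1*, *Lmod1* and *Des*. They were chosen by symbol, with earlier results of these data known, and each symbol matched a single entry of the 56748 genes listed in the count table. RNA was sequenced from primary osteocyte cultures of mouse long bones, in 3 libraries labelled WT and 3 labelled cKO. WT mice were C57BL/6J, and the methods give an age of 7 weeks for C57BL/6 mice that supplied primary osteocytes and describe experimental mice as matched by age and sex. The cKO mice were *Gsdmd* fl/fl; DMP1-Cre, in which a Cre recombinase driven by the *Dmp1* promoter is meant to remove floxed exons of *Gsdmd*, the gene of the pore-forming protein gasdermin D, in osteocytes. All 6 cultures had grown for 7 days after digestion of marrow-flushed bone and had then received 10 ng/mL lipopolysaccharide (LPS) for 3 h and 20 µg/mL aluminum hydroxide for 3 h, a sequence meant to trigger pyroptosis, a lytic form of cell death. Cultures without stimulation were not analysed here, so every difference below is between labels under stimulation.

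Force in smooth muscle cells and in myofibroblasts comes from myosin filaments that pull on thin filaments of actin, which are lined by tropomyosin and by accessory proteins such as transgelin and calponin. The actin isoform encoded by *Acta2* marks both cell types and is also found in activated fibroblasts and in cultured mesenchymal cells, whereas the smooth muscle myosin heavy chain encoded by *Myh11* is largely restricted to mature smooth muscle. Many of these genes are transcribed through serum response factor, which binds a short DNA motif called the CArG box together with the co-factors myocardin and MRTF.

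The libraries held 39566835 to 49734046 counts, and 17146 genes had enough counts to be tested. Levels are given in CPM, the counts per 1000000 after TMM scaling, or in FPKM, the CPM divided by gene length in kilobases, where different genes are compared. A called gene is one with an adjusted p-value below 0.05 in the quasi-likelihood test of edgeR, adjusted by Benjamini-Hochberg over all tested genes. Counts of *Gsdmd* itself were 609, 699 and 549 in WT and 885, 937 and 1045 in the libraries labelled cKO, a log2 fold change of 0.69 (SE 0.083, adjusted p = 2.27e-06). The targeted gene therefore went against the label, and each direction below rests on the label alone. *Xist* had 44817 to 51216 counts in each library labelled cKO but at most 4 in WT, while the Y-linked gene *Ddx3y* had 4033 to 5455 counts in WT but 0 in every library labelled cKO, so the libraries were not matched for sex as the methods describe, and sex and genotype label cannot be told apart. Of 10 osteocyte markers, *Sost* and *Dkk1* had 0 counts in all 6 libraries and *Dmp1*, whose promoter drives the Cre, had 0 to 6. The labels do not say whether replicates came from separate animals, so p-values measure the spread between these libraries, which may be technical.

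The contractile genes were lower in the libraries labelled cKO. Of the 10 genes, all of which passed the filter on low counts, 9 fell, 0 rose and 1, *Des*, was not called, where 19.2% of all 17146 tested genes were called lower, 20.1% higher and 39.3% in either direction. The median log2 fold change of the 10 genes was -1.27, against 0.01 over all tested genes. Of the 10 genes, 6 were called with a log2 fold change of -1 or less, and 4.64% of all tested genes were called lower at that limit, with 6.56% called higher by as much. The 3 libraries labelled cKO lay below the 3 WT libraries for 9 of the 10 genes, which held for 23.9% of all tested genes, and 49.2% of all tested genes had no overlap in either direction. Summed over the 10 genes, the level was 800.4, 820.1 and 914.7 FPKM in the WT libraries and 400.3, 410.4 and 369.7 FPKM in the libraries labelled cKO. The summed level in the libraries labelled cKO, 393.4 ± 21.2 FPKM (SD, n = 3), was 46.6% of the 845.1 ± 61.1 FPKM (SD, n = 3) in WT. Among the WT libraries, replicate 3 was the highest for all 9 called genes, and among the libraries labelled cKO, replicate 3 was the lowest for 7 of them and replicate 1 for the other 2. In these bulk libraries, fewer cells of a type and less RNA per cell cannot be told apart.

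**Figure D1:**
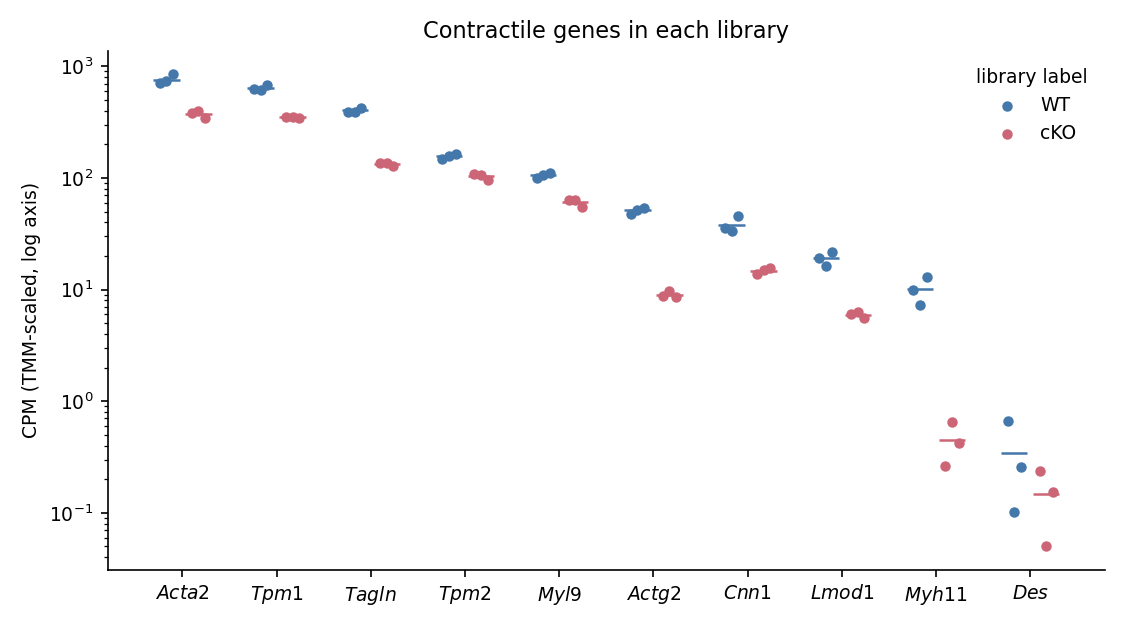
CPM (TMM-scaled, log axis) of the 10 contractile genes in each of the 6 libraries, with points for libraries and short lines for the mean of each group, WT in blue and libraries labelled cKO in red. The groups are apart for 9 genes and overlap for *Des*, and the widest gap is that of *Myh11*, at 7.23 to 12.9 CPM in WT and 0.261 to 0.654 CPM in the libraries labelled cKO.

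The smooth muscle actins fell, and more so the enteric isoform. *Acta2*, which encodes smooth muscle alpha-actin and lies on chromosome 19 of GRCm39 from 34218490 to 34232990 on the minus strand, was at 702, 732 and 848 CPM in the WT libraries and at 382, 399.6 and 347 CPM in the libraries labelled cKO. The groups did not overlap, and replicates of either group were close beside the gap between them. Its mean was 761 ± 77.1 CPM in WT and 376 ± 26.8 CPM in the libraries labelled cKO (SD, n = 3 each), a log2 fold change of -1.02 (SE 0.061, adjusted p = 2.91e-10). *Actg2*, which encodes the smooth muscle gamma-actin known from gut and bladder muscle (chromosome 6, 83489887 to 83513247, minus strand), was at 47.7, 52.2 and 53.6 CPM in WT and at 8.67, 9.68 and 8.56 CPM in the libraries labelled cKO. The WT libraries were close to each other and stood far above all 3 libraries labelled cKO, which held 17.5% of the WT level. The log2 fold change of *Actg2* was -2.51 (SE 0.078, adjusted p = 2.95e-14).

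The smooth muscle myosin genes fell to very different degrees. *Myh11* encodes the smooth muscle myosin heavy chain, the motor of the thick filament (chromosome 16, 14012399 to 14109236, minus strand), with 448, 359 and 501 counts in WT and 11, 26 and 19 counts in the libraries labelled cKO. On the CPM scale these counts were 9.95, 7.23 and 12.9 in WT and 0.261, 0.654 and 0.418 in the libraries labelled cKO, so *Myh11* was low in WT and close to absent in the other group. The log2 fold change was -4.49 (SE 0.28, 95% interval -5.09 to -3.90, adjusted p = 4.5e-10), a 22.6-fold difference that held rank 47 of the 17146 tested genes, counted from the lowest fold change. *Myl9*, the regulatory light chain that is phosphorylated when smooth muscle contracts (chromosome 2, 156617340 to 156623578, plus strand), was at 100.1, 106 and 111 CPM in WT and at 63.0, 64.1 and 55.1 CPM in the libraries labelled cKO. All WT libraries were above all libraries labelled cKO, and the log2 fold change was -0.80 (SE 0.06, adjusted p = 5.73e-09).

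Both tropomyosins, which wind along the thin filament and control access of myosin to actin, fell. *Tpm1* (chromosome 9, 66929872 to 66956688, minus strand) was at 623, 610.0 and 681 CPM in WT and at 351, 351 and 345 CPM in the libraries labelled cKO. *Tpm2* (chromosome 4, 43514711 to 43523765, minus strand) was at 148, 157 and 164 CPM in WT and at 108, 107 and 96.7 CPM in the libraries labelled cKO. The groups did not overlap for either gene, and the log2 fold changes were -0.87 (SE 0.042, adjusted p = 1.56e-11) for *Tpm1* and -0.59 (SE 0.053, adjusted p = 6.62e-08) for *Tpm2*. Both genes make smooth muscle, striated muscle and non-muscle products by alternative splicing, with 44 protein-coding transcripts of *Tpm1* and 29 of *Tpm2* in the GENCODE M39 annotation, and the gene counts pool them.

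The thin filament accessory genes fell by 2.58-fold to 3.20-fold. *Tagln* encodes transgelin, also called SM22 alpha, an actin-bundling protein and an early marker of smooth muscle (chromosome 9, 45840917 to 45847356, minus strand), and was at 393, 391 and 424 CPM in WT and at 137, 137 and 129 CPM in the libraries labelled cKO. Replicates of *Tagln* differed by a few percent, and its log2 fold change of -1.58 (SE 0.045, adjusted p = 1.09e-14) had the smallest adjusted p-value of the 10 genes. *Cnn1*, which encodes calponin 1, an inhibitor of the actomyosin ATPase found in differentiated smooth muscle (chromosome 9, 22010512 to 22020926, plus strand), was at 35.4, 33.2 and 45.8 CPM in WT and at 13.7, 14.8 and 15.7 CPM in the libraries labelled cKO. *Lmod1*, which encodes leiomodin 1, a nucleator of smooth muscle actin filaments (chromosome 1, 135252545 to 135295803, plus strand), was at 19.1, 16.2 and 21.8 CPM in WT and at 5.99, 6.24 and 5.61 CPM in the libraries labelled cKO. The WT libraries spread more widely for *Cnn1* and *Lmod1*, with coefficients of variation of 17.6% and 14.6%, yet all of them lay above the libraries labelled cKO. The log2 fold changes were -1.37 (SE 0.1, adjusted p = 7.12e-09) for *Cnn1* and -1.68 (SE 0.12, adjusted p = 2.43e-09) for *Lmod1*.

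*Des* encodes desmin, the intermediate filament protein of muscle cells (chromosome 1, 75336973 to 75345223, plus strand), and was barely detected. Its counts were 30, 5 and 10 in WT and 10, 2 and 7 in the libraries labelled cKO, and the groups overlapped. The log2 fold change of -1.18 (SE 0.74, 95% interval -2.75 to 0.38) did not pass the test (adjusted p = 0.232), and without WT replicate 1, which held the highest count, it was -0.25 with an adjusted p of 0.862. A difference of *Des* was not detectable at this depth, and the interval includes both no change and a fold change as large as that of *Actg2*.

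The fold changes were thus ordered from *Tpm2*, the smallest among the 9 called genes, through *Myl9*, *Tpm1*, *Acta2*, *Cnn1*, *Tagln*, *Lmod1* and *Actg2* to *Myh11*. Neighbours in this order were compared by the ratio of both genes within each library. The order was set from the same libraries, so the sign of each difference follows from it and is no separate support. The ratio of *Tpm2* to *Myl9* differed between the groups without overlap, by 0.21 on the log2 scale (SE 0.02), as did that of *Acta2* to *Cnn1*, by 0.34 (SE 0.127), that of *Lmod1* to *Actg2*, by 0.84 (SE 0.129), and that of *Actg2* to *Myh11*, by 2.04 (SE 0.414). The other neighbouring pairs of these 9 genes overlapped, among them *Tagln* and *Lmod1*, whose fold changes differed by 0.09 (SE 0.094).

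Levels were compared between genes on the FPKM scale, which uses the gene length of the count table. That length was 6485 bases for *Tpm1*, whose reference transcript has 2190 bases, so the order below depends on the length used. By CPM in WT, *Tpm1* at 638 lay above *Tagln* at 403. In WT, *Acta2* was the highest of the 10 genes at 346 ± 35.1 FPKM (SD, n = 3), followed by *Tagln* at 203 ± 9.33, *Tpm1* at 98.4 ± 5.81, *Myl9* at 91.0 ± 4.63, *Tpm2* at 53.7 ± 2.88 and *Actg2* at 32.8 ± 1.99 FPKM. *Cnn1* at 13.9 ± 2.46, *Lmod1* at 4.82 ± 0.707, *Myh11* at 1.32 ± 0.373 and *Des* at 0.0910 ± 0.0778 FPKM closed the order. Only the *Tpm1* and *Myl9* libraries overlapped among WT neighbours. In the libraries labelled cKO the order was the same, from *Acta2* at 171 ± 12.2 FPKM to *Des* at 0.0393 ± 0.0250 FPKM, and the libraries overlapped for *Tpm1* and *Myl9*, for *Actg2* and *Cnn1*, and for *Myh11* and *Des*. *Acta2* held rank 75 of the 17146 tested genes by mean FPKM in WT and rank 161 in the libraries labelled cKO, so it stayed an abundant transcript in both. *Actg2* moved from rank 1254 to rank 6647, and *Myh11* from rank 11304 to rank 16751. The sarcomeric genes of striated muscle were near the floor, with 16 of 26 listed markers below 10 counts in every library, 9 of them at 0 throughout.

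Nearby sequence was read for the motif that serum response factor binds. RefSeq windows from 250 bases before to 50 bases after the transcription start (build GRCm38.p6) were given for 7 of the 10 genes, and *Actg2*, *Myh11* and *Tagln* had no entry. A CArG box with a perfect A/T core was present in 1 of the 7 windows, that of *Myl9*, and a box with up to 1 core mismatch in 2, those of *Acta2* and *Myl9*. Both strands were searched, and of all 32851 windows, 1.63% held a perfect box and 9.98% a box with up to 1 core mismatch. The windows of *Tpm1*, *Tpm2*, *Cnn1* and *Lmod1*, which were also called lower, held no box. Shown are the stretches of *Acta2* and *Myl9*, the members with a box, and those of 2 paralogs with a perfect box. These are the cytoplasmic actin gene *Actg1*, with a smaller change, and the skeletal actin gene *Acta1*, with a larger one. Of the 26 windows of the paralogs, 19.2% held a perfect box, those of *Acta1*, *Actc1*, *Actg1*, *Cnn2* and *Myl6*, against 14.3% of the members' windows. With up to 1 core mismatch the shares were 34.6% of the paralogs' and 28.6% of the members' windows. *Myl6*, whose stretch is not shown, was not called (log2 fold change 0.06). Capitals mark the boxes and the strand is that of the gene. The *Acta2* stretch is chr19:34255378-34255477 (minus strand), the *Myl9* stretch chr2:156775283-156775394 (plus strand), the *Actg1* stretch chr11:120348556-120348605 (minus strand) and the *Acta1* stretch chr8:123894819-123895000 (minus strand).
Acta2: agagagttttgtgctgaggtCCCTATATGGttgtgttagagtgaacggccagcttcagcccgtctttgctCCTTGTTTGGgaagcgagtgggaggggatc
Myl9: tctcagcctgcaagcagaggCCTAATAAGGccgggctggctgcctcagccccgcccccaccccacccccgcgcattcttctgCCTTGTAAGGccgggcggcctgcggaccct
Actg1: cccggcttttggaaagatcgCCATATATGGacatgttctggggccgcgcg
Acta1: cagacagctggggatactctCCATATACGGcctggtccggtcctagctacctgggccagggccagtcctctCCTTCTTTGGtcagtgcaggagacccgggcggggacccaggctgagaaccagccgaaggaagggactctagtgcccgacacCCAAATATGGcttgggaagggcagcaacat
In *Acta2* the boxes began 84 and 34 bases before the start and had 1 core mismatch each. In *Myl9* the perfect box began 161 bases and the box with 1 mismatch 99 bases before the start, and the perfect boxes of *Actg1* and *Acta1* began 90 and 73 bases before the start. *Acta1* also had boxes with 1 mismatch that began 205 and 154 bases before the start. A match is a description of these letters and was not tested for binding, and windows without a match say nothing of boxes that lie elsewhere.

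Each contractile gene has paralogs in its family, many of them used by most cells or by other muscles, and most of the paralogs had smaller fold changes. Of the 20 tested paralogs, 10 fell, 4 rose and 6 were not called, with a median log2 fold change of -0.24. Over all tested genes, 19.2% were called lower and 20.1% higher. Among the actins, *Actb*, the cytoplasmic beta-actin, was at 1882 ± 59.2 CPM in WT and 2018 ± 69.1 CPM in the libraries labelled cKO (log2 fold change 0.10, adjusted p = 0.0286), a call that was lost with RLE or upper quartile factors and with DESeq2. *Actg1*, the cytoplasmic gamma-actin whose perfect box is shown above, changed by -0.18 (adjusted p = 0.000385). The skeletal alpha-actin *Acta1* fell by 1.67 on the log2 scale, from 6.35 ± 0.653 to 2.00 ± 0.418 CPM (adjusted p = 1.48e-06). Of the non-muscle myosin heavy chains, *Myh9* changed by -0.26 (adjusted p = 0.00154) and *Myh10* by -0.36 (adjusted p = 2.51e-05) on the log2 scale. The essential light chain *Myl6* was at 233 ± 11.5 CPM in WT and 243 ± 6.17 CPM in the libraries labelled cKO and was not called (adjusted p = 0.328). Among the tropomyosins made in most cells, *Tpm4* fell by 0.22 on the log2 scale (adjusted p = 4.71e-05) and *Tpm3* rose by 0.13 (adjusted p = 0.012), the latter not called with upper quartile factors. *Cnn2* and *Cnn3* fell by 0.42 and 0.34 on the log2 scale, and *Tagln2* was at 261 ± 16.4 CPM in WT and 246 ± 5.58 CPM in the libraries labelled cKO without a call (adjusted p = 0.185). Among the intermediate filament genes, *Vim* (vimentin) fell by 0.37 and *Nes* (nestin) by 1.73, and *Synm* (synemin) rose by 0.68 on the log2 scale.

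**Figure D2:**
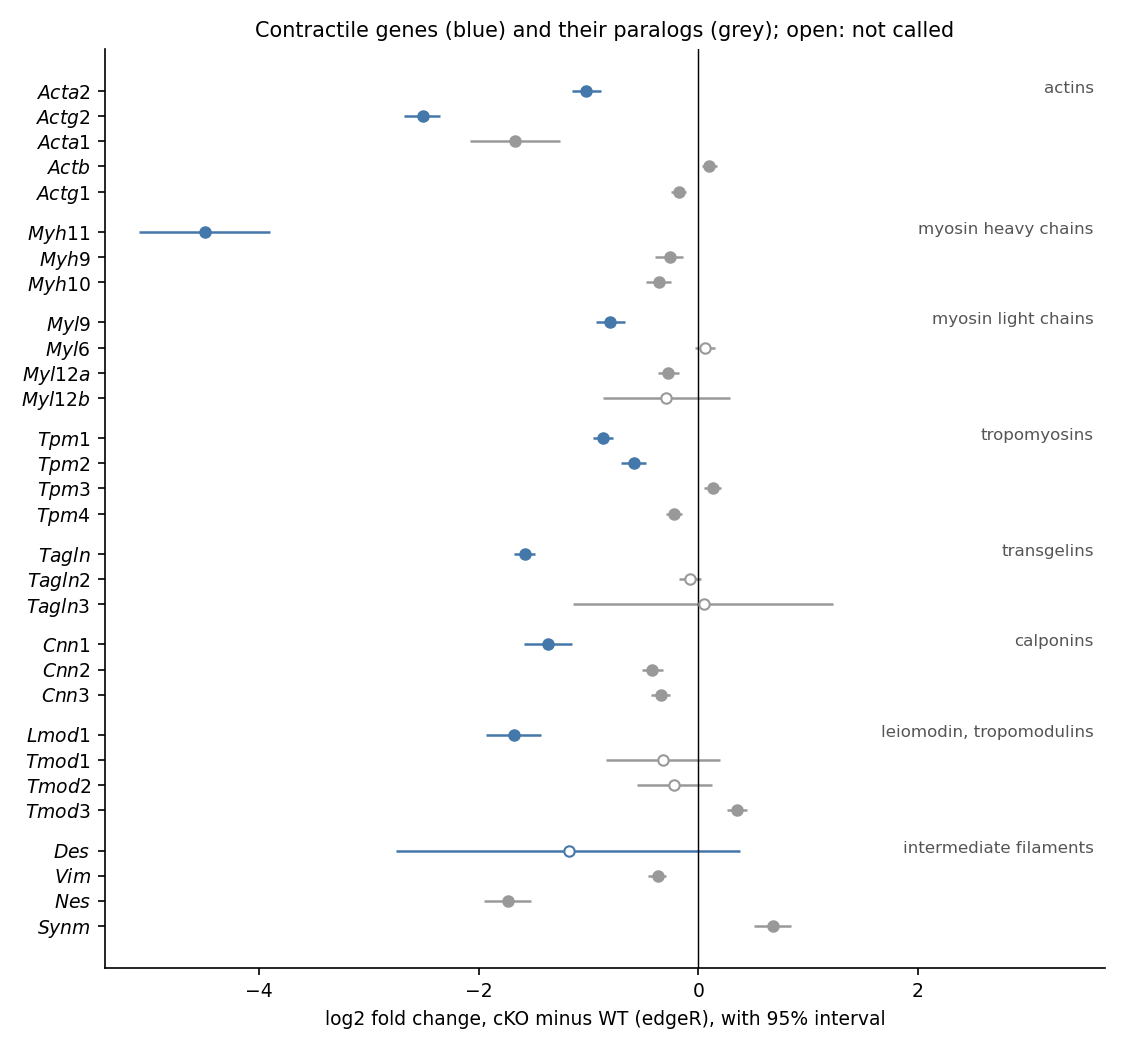
Log2 fold change of the contractile genes (blue) and their paralogs (grey), libraries labelled cKO minus WT, with 95% intervals from edgeR and open points for genes that were not called. Within the actins, heavy chains, light chains, tropomyosins, calponins and transgelins the contractile member lies to the left of the non-muscle paralogs, and *Acta1* and *Nes* are the paralogs that lie furthest left, at -1.67 and -1.73.

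The share of a family held by its contractile members was computed within each library from length-scaled counts, a measure that does not depend on scaling between libraries. The size of a share does depend on the gene length in the count table, 1162 bases for *Myl9* and 3187 for *Myl6*. In WT replicate 1, *Myl9* had 4504 counts and *Myl6* had 10464. The 4 light chains pool *Myl6*, an essential chain, with the regulatory chains *Myl9*, *Myl12a* and *Myl12b*. *Myl12a* was at 30.8 FPKM in WT and 25.4 FPKM in the libraries labelled cKO, and *Myl12b* at 0.726 and 0.591 FPKM. The share of *Myl9* among regulatory chains alone was not computed. *Tagln* made up 62.6%, 61.3% and 61.4% of the transgelins in the WT libraries and 36.2%, 36.9% and 35.9% in the libraries labelled cKO, a difference of -25.44 percentage points. *Acta2* and *Actg2* together made up 23.58% ± 1.143 of the 6 actins in WT and 12.72% ± 0.5319 in the libraries labelled cKO (SD, n = 3 each). *Myl9* made up 46.49% ± 1.717 of the 4 light chains in WT and 33.80% ± 2.14 in the libraries labelled cKO. These shares differed in the same direction without overlap between the groups. *Tpm1* and *Tpm2* held 40.60% ± 1.161 of the 4 tropomyosins in WT and 30.69% ± 0.7805 in the libraries labelled cKO. *Cnn1* held 5.577% ± 0.6813 of the 3 calponins in WT and 2.894% ± 0.1551 in the libraries labelled cKO. *Myh11* held 1.067% ± 0.1936 of the 4 myosin heavy chains in WT and 0.05813% ± 0.02494 in the libraries labelled cKO, so the non-muscle chains made up nearly all of this family in both groups. For all 6 families the groups did not overlap, and the two-sided exact permutation test gave p = 0.1, the smallest value that 3 against 3 libraries allow.

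**Figure D3:**
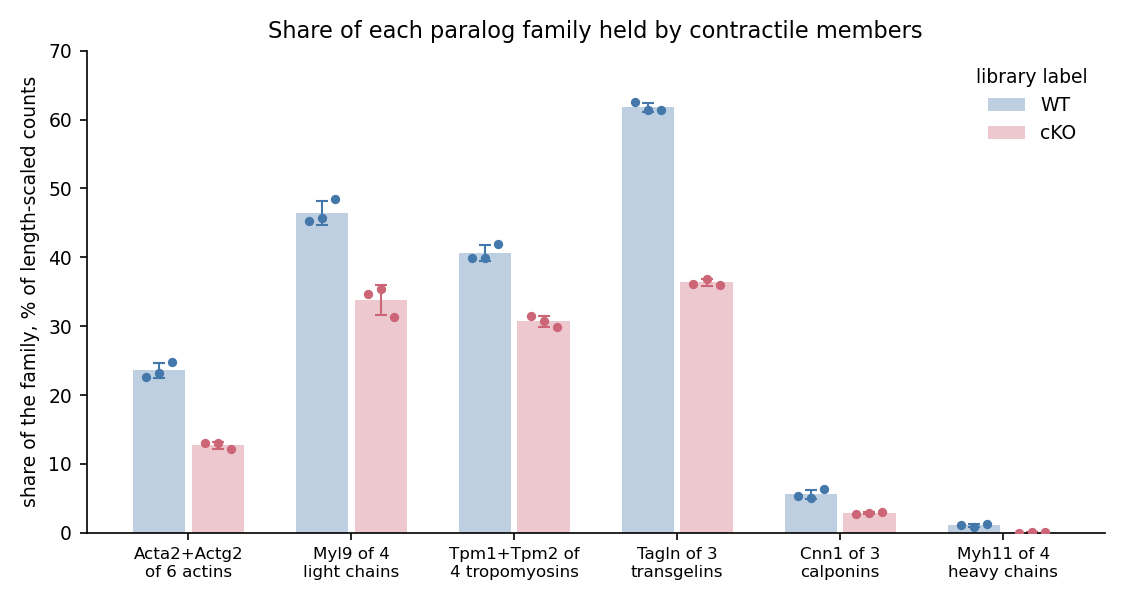
Share of each paralog family held by its contractile members, in percent of length-scaled counts, with bars for the mean, whiskers for the SD and points for the 3 libraries of each group. The share is lower in the libraries labelled cKO for each family, from 61.8% to 36.4% for *Tagln* at the largest.

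The regulators of contractile genes were mixed. Of 24 tested genes for serum response factor, its co-factors and other regulators, 13 fell, 4 rose and 7 were not called, with a median log2 fold change of -0.29. The corresponding shares of all tested genes were 19.2% lower and 20.1% higher. The genes of the transcription factor complex itself are named here after their values were seen. *Srf* was at 46.5 ± 5.11 CPM in WT and 43.8 ± 0.777 CPM in the libraries labelled cKO and was not called (log2 fold change -0.09, adjusted p = 0.366). The co-factor gene *Mrtfa* fell by 0.22 on the log2 scale (adjusted p = 0.0016), *Mrtfb* was not called (log2 fold change 0.09, adjusted p = 0.308), and *Myocd*, which encodes myocardin, had 0 to 11 counts per library and was not tested. Other regulators had larger differences. *Gata6*, a transcription factor gene of vascular smooth muscle, fell by 3.35 on the log2 scale, from 6.60 ± 0.546 to 0.641 ± 0.124 CPM (adjusted p = 7.19e-10). *Csrp1*, which encodes a LIM protein of smooth muscle, fell by 1.22, from 169 ± 11.7 to 72.9 ± 2.12 CPM (adjusted p = 3.35e-12), and *Fhl2*, another LIM gene, fell by 0.75 on the log2 scale. The MEF2 transcription factor genes *Mef2a*, *Mef2c* and *Mef2d* rose by 0.83, 0.92 and 0.29.

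Genes that set the phosphorylation of myosin light chains moved in both directions. Of 24 tested, 7 fell, 6 rose and 11 were not called, and their median log2 fold change was 0.00. Since 19.2% of all tested genes were called lower and 20.1% higher, these counts alone do not set the list apart. The lower genes with the strongest calls were *Rhoc*, which encodes a small GTPase (-0.50, adjusted p = 3.87e-08), *Rock2*, which encodes a kinase that promotes contraction (-0.36, adjusted p = 5.73e-07), and *Arhgef11*, which encodes a guanine nucleotide exchange factor (-0.39, adjusted p = 5.37e-06). Among the higher genes, *Arhgef1*, another exchange factor gene, rose by 0.26 on the log2 scale (adjusted p = 3e-04).

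Other genes of smooth muscle and of myofibroblasts moved in both directions, and lower calls outnumbered higher ones. Of 45 tested smooth muscle genes outside the 10, 28 fell, 10 rose and 7 were not called, with a median log2 fold change of -0.26. For comparison, 19.2% of all tested genes were called lower and 20.1% higher. *Aoc3*, a surface amine oxidase of vascular smooth muscle and adipocytes, fell by 3.73 on the log2 scale, from 29.9 ± 2.30 to 2.25 ± 0.174 CPM (adjusted p = 1.56e-14). The focal adhesion genes *Tns1* (tensin 1) and *Zyx* (zyxin) fell by 1.26 and 0.90 on the log2 scale. In the opposite direction, *Ednrb*, an endothelin receptor gene, rose by 2.56, from 4.54 ± 0.591 to 26.8 ± 3.27 CPM (adjusted p = 6.5e-12), and *Sorbs2* and *Itga1* rose by 1.28 and 0.88. Of 35 genes of matrix, adhesion and TGF-beta signalling known from myofibroblasts, 21 fell, 8 rose and 6 were not called, with a median log2 fold change of -0.40. *Postn*, which encodes the matrix protein periostin, fell by 3.12, from 231 ± 9.27 to 26.4 ± 0.481 CPM (adjusted p = 1.46e-17). The collagen cross-linking enzyme gene *Loxl2* fell by 1.57 and *Cdh2*, which encodes N-cadherin, by 1.44 on the log2 scale. The collagen-binding integrin gene *Itga11* rose by 1.16, from 188 ± 1.97 to 418 ± 12 CPM (adjusted p = 9.89e-14), and the ligand gene *Tgfb1* and the receptor gene *Pdgfra* rose by 0.72 and 0.45.

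**Figure D4:**
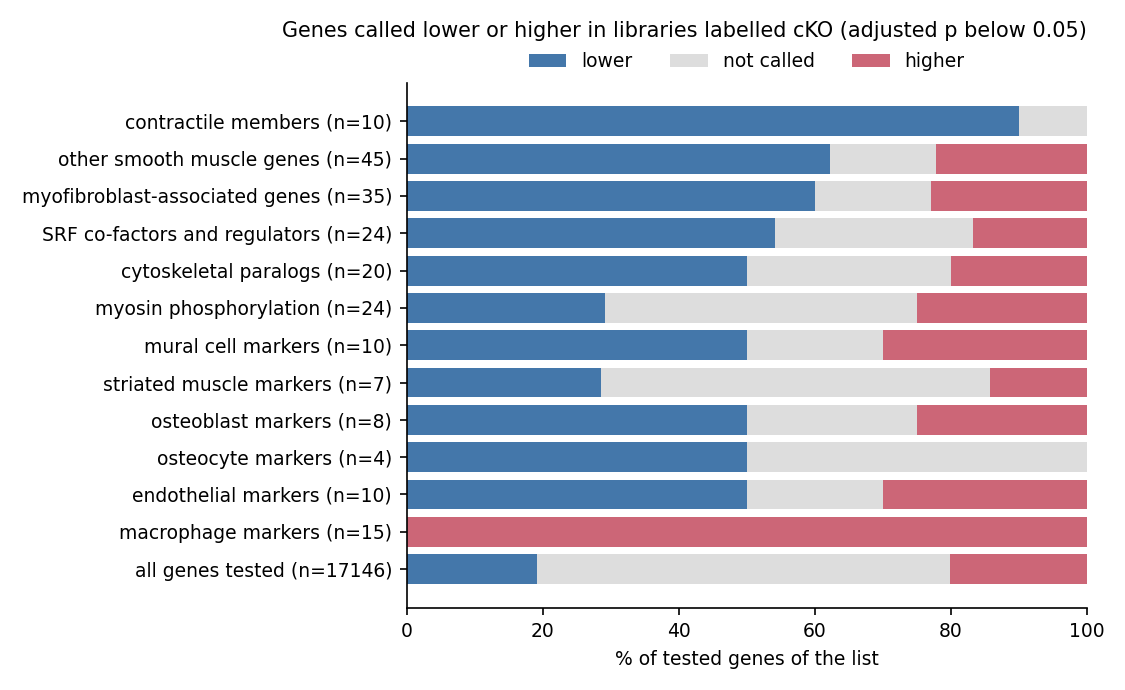
Percent of the tested genes of each list that were called lower (blue), higher (red) or not called (grey) in the libraries labelled cKO. Of the 10 contractile genes 9 were lower, of the 15 tested macrophage markers 15 were higher, and of all 17146 tested genes 3285 were lower and 3445 higher.

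Markers of other cell types also differed between the groups, not all in the direction of the contractile genes. All 15 tested macrophage markers of 16 listed rose, by a median of 3.01 on the log2 scale, and their summed level was 1220 to 1370 CPM in the WT libraries and 6550 to 6880 CPM in the libraries labelled cKO. *Ms4a7*, *Csf1r* and *C1qc* rose by 3.80, 3.17 and 3.32 on the log2 scale, and *Cd163* was at 0 to 15 counts per library. Their part in the lower contractile levels and in the shares within families was not tested. *Pdgfrb*, a receptor gene of mesenchymal and mural cells, was at 367 ± 12.3 CPM in WT and 353 ± 7.28 CPM in the libraries labelled cKO and was not called (adjusted p = 0.275). Other genes of mesenchymal cells moved in both directions. *Vim*, *Thy1* and *Cdh11* fell by 0.37, 0.60 and 0.59 on the log2 scale, and *Pdgfra* rose by 0.45. No list of mesenchymal markers was defined, so the share of such cells was not tested.

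Mural cells, the pericytes and smooth muscle cells of vessel walls, also express contractile genes. Of 10 tested mural markers, a list that includes *Des*, 5 fell, 3 rose and 2 were not called, with a median log2 fold change of -0.75. Their summed level was 1030 to 1040 CPM in WT and 1080 to 1110 CPM in the libraries labelled cKO. Most of that sum in WT came from *Pdgfrb* at 367 CPM and *Ndufa4l2* at 347. *Anpep* went from 58.9 CPM in WT to 166 CPM in the libraries labelled cKO, and *Steap4* from 88.5 to 157 CPM. Across all tested genes, 19.2% were called lower and 20.1% higher. *Notch3*, a receptor gene of vascular smooth muscle, fell by 1.10 on the log2 scale, from 44.4 ± 2.30 to 20.7 ± 0.625 CPM (adjusted p = 2.94e-10), and *Mcam* and *Ndufa4l2* fell by 1.68 and 0.39 on the same scale. *Anpep*, *Steap4* and *Cspg4* rose by 1.5, 0.82 and 0.22. *Pdgfrb*, also of this list, was not called, as given above. Among the remaining mural markers, *Rgs5* had 133 to 160 counts in WT against 42 to 47 in those labelled cKO, a fall by 1.65 on the log2 scale (adjusted p = 3.22e-05). *Abcc9* had 75 to 127 counts in WT against 8 to 26 in those labelled cKO (log2 fold change -2.63, adjusted p = 2.54e-05), and *Kcnj8* and *Higd1b* were at 0 to 2 counts in every library. The part of mural cells in the contractile levels was not tested.

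Endothelial markers summed to 17.7 to 20.6 CPM in WT and 27.5 to 30.7 CPM in the libraries labelled cKO, with 5 of 10 tested genes lower, 3 higher and 2 not called (median -0.75), and *Cldn5* at 0 counts in every library. Beside this list and the short lists that follow, 19.2% of all tested genes were called lower and 20.1% higher. *Emcn*, *Tek* and *Cdh5* fell by 5.91, 4.25 and 3.08 on the log2 scale, while *Kdr*, *Vwf* and *Erg* rose by 2.04, 1.67 and 0.67. Striated muscle markers summed to 11.1 to 13.1 CPM in WT and 5.96 to 8.12 CPM in the libraries labelled cKO. Of the 7 tested, 2 fell, *Acta1* and *Tnnc1*, 1 rose, *Tnnt3*, which had at most 21 counts in any library, and 4 were not called, with a median of -0.61. Of 8 tested osteoblast markers, 4 fell, 2 rose and 2 were not called, with a median of -0.15. Their summed level was 16800 to 19000 CPM in WT and 12100 to 12600 CPM in the libraries labelled cKO, and *Col1a1* fell by 0.67, *Spp1* by 0.64 and *Runx2* by 0.21 while *Ibsp* rose by 2.01 and *Alpl* by 0.68. Most of that sum in WT came from *Spp1* at 8495 CPM, *Col1a1* at 5802 and *Col1a2* at 3367, while *Bglap* had 0 to 5 counts per library. Of the 4 tested osteocyte markers, *Pdpn* and *Fbln7* fell by 0.28 and 0.51 and 2 were not called, with a median of -0.13 and a summed level of 579 to 614 CPM in WT and 530 to 557 CPM in the libraries labelled cKO. Most of that sum in WT came from *Ackr3* at 327 CPM and *Pdpn* at 234, while *Mepe* had 0 to 2 and *Phex* 2 to 22 counts per library.

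Sharing of reads with other genes was examined by sequence and by position. No stretch of 100 bases of any member's reference transcript occurred in a transcript of another gene. The paralogs were not examined in this way. *Tagln* overlaps 2 genes on the opposite strand, *Pcsk7*, with 1004 to 1567 counts in WT against 1240 to 1386 in those labelled cKO, and the long non-coding gene *Gm48529*, with 1476 to 2521 against 798 to 1014 counts. The kit marked strand, but the strand setting of the counting is not given in the sources used here. Whole gene spans were compared and not exons, so whether *Tagln* shares reads with these partners was not tested. The same holds for *Tpm1*, which overlaps 2 long non-coding genes on the opposite strand with at most 49 counts in any library, while the opposite-strand genes within *Lmod1* and *Des* had 0 counts in all libraries. *Tagln* itself held 16459 to 19388 counts in WT against 5461 to 5871 in those labelled cKO.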

How the data were processed

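RNA-seq libraries of 6 stimulated osteocyte cultures, 3 labelled WT and 3 labelled cKO, were grouped by the sample titles. The authors trimmed the paired reads, mapped them to GRCm39 with HISAT2 2.0.5 and deposited raw counts per gene from featureCounts (1.55.0-p3 in the labels, another release in the methods), without normalization. From 63.4% to 65.7% of counts from 1 to 10 were even, as when both mates are counted. From these counts, filterByExpr, TMM, glmQLFit and glmQLFTest of edgeR 4.0.16 (R 4.3.3) were run on the whole table with no covariate beside genotype. The p-values were adjusted by Benjamini-Hochberg over 17146 genes, and the biological coefficient of variation was 8.36%. Replicates differed by more than counting noise (chi-square per gene 4.8 to 13.9) and were counted separately. Exact permutation tests used SciPy 1.17.1. The 10 genes and all lists were chosen with earlier results of these data known. Named were all members, *Gsdmd*, family paralogs, defining markers and, of each other list, the 3 genes with the smallest p-values in each direction, some of which are not reported here. Alternatives were DESeq2 1.42.0, limma-voom 3.58.1, other factors, filters, a fold limit, halved counts, a replicate block, raw counts or fewer actins in the shares, and each library left out. The code was tested on simulated data. Overlaps of genes used the whole gene spans of the count table. Transcript numbers and shared stretches used GENCODE M39, and promoter windows RefSeq.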

Additional observations from a re-analysis of the deposited data

How the results depend on the processing

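The 9 called contractile genes stayed lower and past the adjusted p threshold in all 16 alternatives, with log2 fold changes from -4.86 to -4.23 for *Myh11*, -2.58 to -2.48 for *Actg2* and -0.66 to -0.54 for *Tpm2* at the extremes. *Des* was called in 0 of the 14 alternatives that tested it, with log2 fold changes from -1.68 to -0.25 and adjusted p-values from 0.106 to 0.862. No contractile gene changed direction in the alternatives. The fold limit, counted among the 16 and among the 14 for *Des*, reused the main fit, so its adjusted p-values repeat the main ones.

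A limit of 1 on the size of the log2 fold change cut the calls over all genes to 1124 higher and 796 lower, and *Myl9*, *Tpm1* and *Tpm2* were then not called, which leaves 6 members. Under that limit the regulators had 0 higher and 3 lower genes, the myosin phosphorylation genes 0 and 0, other smooth muscle genes 4 and 9, paralogs 0 and 2, and myofibroblast genes 1 and 5. It also left 1 higher and 1 lower striated marker, 1 higher and 4 lower mural markers, and 2 higher and 5 lower endothelial markers. Osteocyte markers had 0 higher and 0 lower, osteoblast markers 1 higher and 0 lower, and macrophage markers 15 higher and 0 lower. With upper quartile factors 39.5% of all calls were higher, against 51.2%, the median of all genes moved to -0.061 from 0.008, and 3 myosin phosphorylation genes and 2 paralogs were called higher. The single higher striated marker, *Tnnt3*, was not called with DESeq2, without the filter or with at least 10 counts in every library (0 each), while 2 were called with halved counts. With at least 10 counts in every library, 2 endothelial markers were lower.

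With each library left out in turn, 3 to 5 myosin phosphorylation genes, 2 to 4 paralogs, 0 to 0 striated and 0 to 1 osteocyte markers were higher, and 1 to 3 striated, 3 to 5 endothelial and 2 to 4 osteoblast markers were lower. The low ends came without cKO replicate 1 (myosin phosphorylation), without WT replicates 1 or 2 or cKO replicate 2 (paralogs), without WT replicate 2 or cKO replicate 3 (striated), without WT replicates 2 or 3 or cKO replicate 2 (endothelial) and without cKO replicate 3 (osteoblast), and the osteocyte call came without WT replicate 3. From raw counts instead of length-scaled levels, the shares differed by -9.236 percentage points for actins, -0.6089 for heavy chains, -8.251 for light chains and -11.27 for tropomyosins, against -10.85, -1.009, -12.68 and -9.912. The causes of these moves were not tested.

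Equal replicate numbers did not pair the samples, as their deviations from the group means correlated at -0.0055, 0.0023 and -0.01. With the replicate number as a block, 3298 genes were higher and 3098 lower, 9 members were lower and 0 striated markers higher.

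The limits are these. The label of the cKO group was not borne out by *Gsdmd* counts over all exons, sex moved with the label, 3 libraries a group allow no exact p below 0.1, and a difference of *Des* was not detectable at this depth. Isoforms of *Tpm1* and *Tpm2* were not separated.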
